A study of Mus musculus with 6 samples.

Results

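The 9 genes described here are switched on by ERK signalling or restrain it. They are the MAP kinase phosphatase genes *Dusp4* and *Dusp6*, the Sprouty genes *Spry2* and *Spry4* with their relative *Spred1*, the ETS transcription factor genes *Etv1*, *Etv4* and *Etv5*, and the immediate-early gene *Egr1*. They were taken by name, with earlier results of these data known, so their counts beside those of all genes are descriptions and not tests. Every probe set whose only symbol was one of them was used. This gave 19 of the 28898 probe sets with 1 symbol, for 9 of 17097 genes. Another 2 probe sets, annotated to *Etv5* together with *Scpep1*, were left out. Transcripts were measured on 6 arrays, 1 per condition, from the E14tg2a mouse line. They are ESCs, then EpiLCs carrying a scramble shRNA at day 2 (d2), at day 4 (d4) and under the label + PRDM14, for which the labels give no day, and last, under the label *Tet1*/*Tet2* KD, EpiLCs at day 2 and EpiLCs + PRDM14. By the methods, the cells hold a doxycycline-inducible *Prdm14* cassette placed by piggyBac, in lines grown from picked colonies, and the shRNAs came from lentivirus. EpiLCs, the in vitro counterpart of the epiblast, were made with activin A and bFGF, an FGF that signals through ERK. At day 2 they were replated in GK15 medium with or without doxycycline, and no added FGF is named for that step. For ESCs the labels describe serum with LIF, whereas the methods for EpiLC induction start from ESCs in a medium with the MEK inhibitor PD0325901, and the sources used here do not say which medium the arrayed ESCs came from. Cell state and medium therefore cannot be told apart in comparisons with ESCs, or of day 2 with the replated cells. For EpiLCs (d4) and EpiLCs + PRDM14 the methods name the same GK15 medium, without and with doxycycline.

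ERK is the last kinase of the RAS, RAF and MEK cascade below FGF and other growth factor receptors. In mouse ESCs, FGF-ERK signalling favours exit from naive pluripotency, and MEK inhibitors help to hold the naive state. Active ERK raises transcription of its own brakes. DUSP6 removes phosphate from ERK in the cytoplasm and DUSP4 in the nucleus, and the Sprouty and SPRED proteins act further up, on RAS and RAF. ETV1, ETV4 and ETV5 form the PEA3 group of ETS factors, whose genes are classic FGF targets. EGR1 is a zinc-finger factor made within minutes of a stimulus. In the absence of ERK activity, the repressor Capicua (CIC) binds octamers near several of these genes.

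Levels are log2 RMA signals minus the median of their array, so 0 is the median probe set, and differences are on the same log2 scale. Where a gene has several probe sets, the one brightest on average stands for it unless another is named. With 1 array per condition there is no replicate error and no p-value. The words higher and lower stand for differences of 1.5-fold or more (0.58 on the log2 scale), the cut-off of the study's methods, and the counts of the 9 genes are given with the share of all 17097 genes past the same cut-off. Of 10 naive pluripotency markers, 9 were higher and 1 lower in ESCs than at day 2, and 10 were higher with PRDM14. Of 6 primed epiblast markers, 4 were lower in ESCs and 5 with PRDM14. Among markers of other lineages, 2 of 4 trophoblast genes (*Tfap2c* and *Krt7*) and 1 of 4 neural genes (*Tubb3*) were higher and 1 of 6 fibroblast genes (*Dcn*) was lower with PRDM14 than at day 2, and their part in the results was not tested. The summed trophoblast signal in scramble EpiLCs was 1.95 at day 2, 2.65 at day 4 and 2.90 with PRDM14 on the log2 scale. Over the arrays it ran from 1.95 to 3.53, and *Cdx2* and *Elf5* were within the cut-off with PRDM14. At day 4 without PRDM14, *Tfap2c* was at 1.31, *Krt7* at 0.78 and *Tubb3* at 1.66, against 2.03, 0.27 and 2.97 with it. At day 2 these genes were at 0.05, -0.41 and 0.66, and in ESCs at 0.49, -0.26 and 2.76. *Tubb3* was thus higher in ESCs than at day 2 as well (2.10). Of 6 primitive endoderm genes 1 was higher in ESCs and 0 with PRDM14, and 0 of 3 mesoderm genes passed the cut-off in either. The single *Prdm14* probe set was not raised in either + PRDM14 array (-0.34 and -0.37, against -0.24 and -0.22 at day 2). It was at 1.67 in ESCs, and whether it reads the transcript of the inducible cassette was not tested. By the methods, PRDM14 expression and knockdown were examined in the lines by qRT-PCR and western blot. The brighter of 2 *Tet2* probe sets stood 0.17 above scramble in the day 2 array labelled KD and at -0.54 against it with PRDM14, and the dimmer one at 0.21 and -0.17. *Tet1* was not analysed here. The names + PRDM14 and KD are thus the labels of the arrays throughout.

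The sequences before the transcription start are shown for 4 of the genes because *Dusp6*, *Spry2* and *Etv1* were lower together with PRDM14, whereas *Etv5* was not. They are the 250 bases upstream of the RefSeq start in GRCm38.p6, the C57BL/6J reference and not the genome of E14tg2a, 5′ to 3′ on the gene's strand, with 1 of 2 windows printed for *Etv1* and for *Etv5*. Capitals mark a CIC octamer, which is TGAATGAA, TGAATGGA, TCAATGAA or TCAATGGA on either strand.
*Dusp6* chr10:99262981-99263230 (plus strand): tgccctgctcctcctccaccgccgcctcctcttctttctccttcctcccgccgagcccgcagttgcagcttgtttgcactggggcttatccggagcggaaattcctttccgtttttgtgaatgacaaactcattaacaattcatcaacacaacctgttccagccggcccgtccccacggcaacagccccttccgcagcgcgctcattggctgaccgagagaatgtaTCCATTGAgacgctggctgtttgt
*Spry2* chr14:105896820-105897069 (minus strand): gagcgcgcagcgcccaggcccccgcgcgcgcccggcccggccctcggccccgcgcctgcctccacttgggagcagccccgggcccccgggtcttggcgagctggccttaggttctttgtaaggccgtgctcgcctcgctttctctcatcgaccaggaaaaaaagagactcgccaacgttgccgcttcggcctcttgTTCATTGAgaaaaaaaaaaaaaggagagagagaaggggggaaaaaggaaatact
*Etv1* chr12:38779832-38780081 (plus strand): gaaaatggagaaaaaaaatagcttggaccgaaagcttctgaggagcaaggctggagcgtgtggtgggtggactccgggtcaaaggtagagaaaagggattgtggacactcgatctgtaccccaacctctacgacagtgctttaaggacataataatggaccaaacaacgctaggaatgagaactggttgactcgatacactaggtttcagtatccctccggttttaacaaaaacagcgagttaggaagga
*Etv5* chr16:22438369-22438618 (minus strand): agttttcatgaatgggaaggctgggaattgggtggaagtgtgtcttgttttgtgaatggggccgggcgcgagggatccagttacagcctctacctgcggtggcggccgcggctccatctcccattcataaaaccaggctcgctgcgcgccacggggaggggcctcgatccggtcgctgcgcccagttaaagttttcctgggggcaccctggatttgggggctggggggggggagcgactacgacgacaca
*Dusp6* held 1 octamer, beginning 24 bases before the start, and *Spry2* held 1, beginning 54 bases before it. None lay in either window of *Etv1*, in either window of *Etv5* or in that of *Spred1*. Of 32851 such windows of all genes, 3.19% held at least 1. The octamers were completed after the windows had been read, so this share is a background and not a test. The ETS motif CCGGAAG was in none of the 7 member windows and in 6.91% of all windows, searched on both strands. The CRE motif TGACGTCA (1.55% of all windows) and its core TGACG (17.8%), the EGR motif GCGGGGGCG (2.57%), the CArG box (1.47%) and the E box CACGTG (6.02%) were in none either. The GC box GGGCGG (32.7%) matched 3 times in the window of *Etv5* not printed and 2 times in that of *Spred1*. A match of letters is a description of the sequence and not a binding site.

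**Figure D1:**
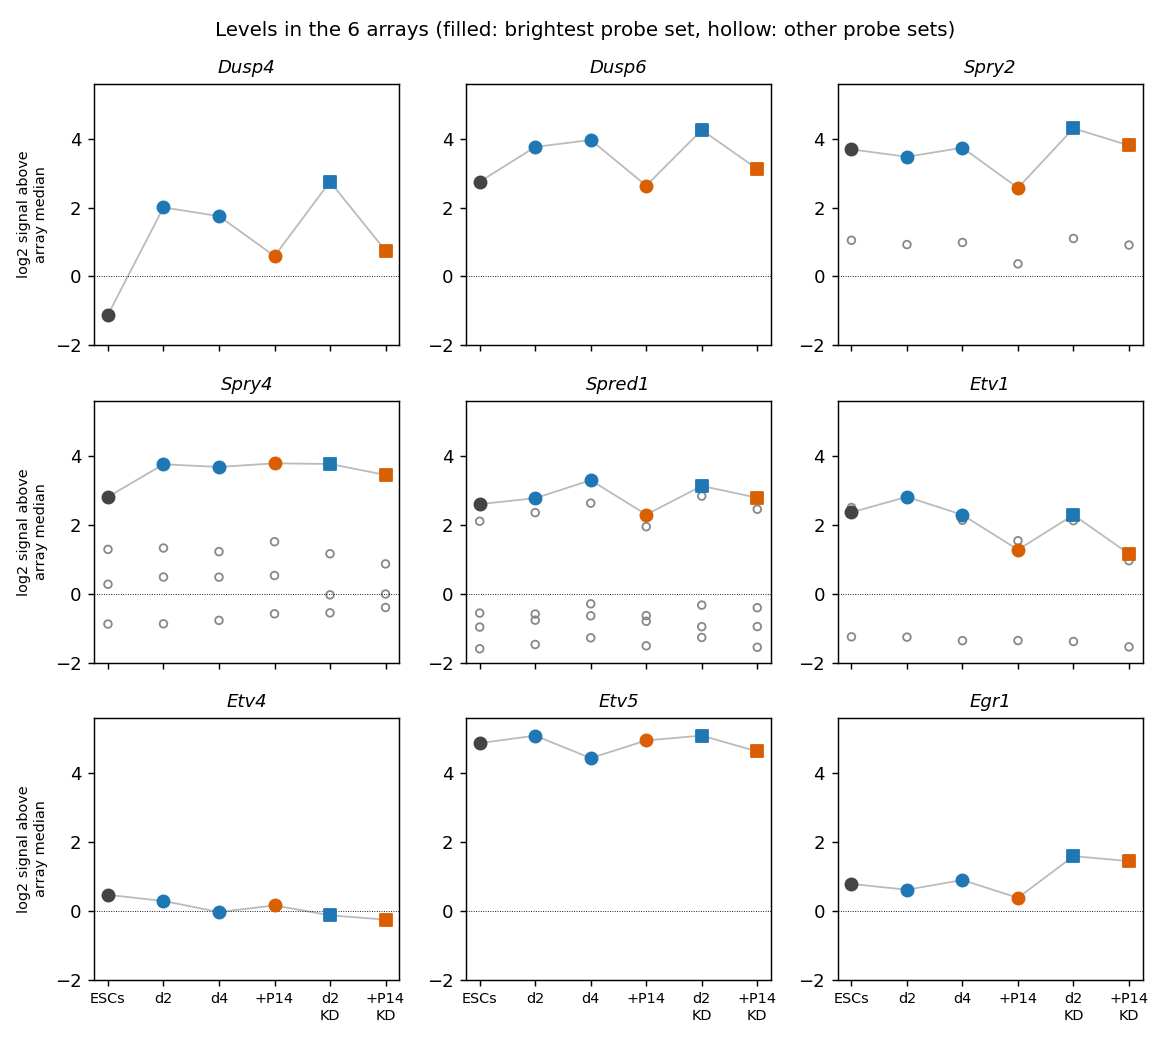
Log2 signal above the array median (vertical axis) of the 9 genes in ESCs, EpiLCs (d2), EpiLCs (d4), EpiLCs + PRDM14 (+P14) and the arrays labelled KD (squares), 1 array each. Filled points are the brightest probe set and hollow ones the other probe sets. *Dusp4* runs from -1.11 in ESCs to 2.75 at day 2 labelled KD, whereas *Etv5* stays between 4.44 and 5.09.

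The phosphatase genes *Dusp4* and *Dusp6* were low in ESCs, high in EpiLCs without PRDM14 and lower again with it, in the scramble arrays and in those labelled KD. *Dusp4* has 1 probe set. It was at -1.11 in ESCs, 2.00 at day 2, 1.75 at day 4 and 0.59 with PRDM14 in scramble EpiLCs, and 2.75 at day 2 and 0.74 with PRDM14 in EpiLCs labelled KD. The 3 EpiLC arrays without PRDM14 were thus the highest, the + PRDM14 arrays came between, and ESCs were lowest by a wide gap. The ESC signal was 8.67-fold below that of EpiLCs (d2) and 3.26-fold below that of EpiLCs + PRDM14. It lay under the lower quartile of its array (-0.94), and whether it was above background was not tested, so these are ratios of signals and not of transcript amounts. *Dusp6*, likewise with 1 probe set, was at 2.75 in ESCs, 3.76 at day 2, 3.96 at day 4 and 2.64 with PRDM14 in scramble EpiLCs, and 4.25 at day 2 and 3.12 with PRDM14 in EpiLCs labelled KD. Here ESCs and scramble EpiLCs + PRDM14 lay within 1.5-fold of each other, unlike *Dusp4*. Both genes kept their day 2 level at day 4 to within the cut-off, with differences of -0.25 for *Dusp4* and 0.20 for *Dusp6*.

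Of the Sprouty group, *Spry2* and *Spred1* were lowest in EpiLCs + PRDM14, whereas *Spry4* was lowest in ESCs. *Spry2* was at 3.69 in ESCs, 3.47 at day 2, 3.74 at day 4 and 2.57 with PRDM14 in scramble EpiLCs, and 4.30 at day 2 and 3.81 with PRDM14 in EpiLCs labelled KD. ESCs and the day 2 and day 4 scramble arrays could not be ordered beyond the cut-off, and scramble EpiLCs + PRDM14 stood alone below them. Its dimmer probe set had the same array lowest, at 0.36, with the others between 0.91 and 1.10. *Spry4* was at 2.81 in ESCs, 3.76 at day 2, 3.68 at day 4 and 3.79 with PRDM14 in scramble EpiLCs, and 3.77 at day 2 and 3.45 with PRDM14 in EpiLCs labelled KD. The gap between ESCs and EpiLCs (d2) was seen at this probe set alone. At the other 3 it was -0.04, -0.21 and -0.01, and the cause of this disagreement was not tested. *Spred1* was at 2.60 in ESCs, 2.77 at day 2, 3.30 at day 4 and 2.30 with PRDM14 in scramble EpiLCs, and 3.13 at day 2 and 2.79 with PRDM14 in EpiLCs labelled KD. Its second brightest probe set ran between 1.95 in EpiLCs + PRDM14 and 2.83 in EpiLCs (d2) labelled KD. The remaining 3 probe sets of *Spred1* lay below the array median on every array and varied by at most 0.34.

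The ETV genes did not share a pattern. *Etv1*, by its brightest probe set, was at 2.36 in ESCs, 2.81 at day 2, 2.29 at day 4 and 1.28 with PRDM14 in scramble EpiLCs, and 2.29 at day 2 and 1.16 with PRDM14 in EpiLCs labelled KD. Both + PRDM14 arrays were below all others, by more than 1.5-fold. The second probe set, at 1.54 and 0.96 in the + PRDM14 arrays and between 2.12 and 2.74 in the others, also had them lowest, but its scramble level lay just within 1.5-fold of the nearest array. The third, 1.25 or more below the array median throughout, varied by 0.29. *Etv5* was the brightest of the 9 genes, above 97.0% of the named probe sets. It was at 4.88 in ESCs, 5.09 at day 2, 4.44 at day 4 and 4.95 with PRDM14 in scramble EpiLCs, and 5.09 at day 2 and 4.63 with PRDM14 in EpiLCs labelled KD. Only EpiLCs (d4) differed from EpiLCs (d2) past the cut-off. *Etv4* has 1 probe set, which is dim, at 0.47 in ESCs, 0.29 at day 2, -0.03 at day 4 and 0.16 with PRDM14 in scramble EpiLCs, and -0.13 at day 2 and -0.25 with PRDM14 in EpiLCs labelled KD. It was brighter than only 45.4% of the named probe sets, and with array medians subtracted no comparison put it past the cut-off. Signals of different probe sets are not on 1 scale, so these levels do not rank the genes by transcript number.

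*Egr1* was at 0.79 in ESCs, 0.62 at day 2, 0.90 at day 4 and 0.38 with PRDM14 in scramble EpiLCs, and 1.59 at day 2 and 1.45 with PRDM14 in EpiLCs labelled KD. The arrays labelled KD were the highest, and the other 4 lay within 1.5-fold of each other. Those 4 hold ESCs as well as EpiLCs, so *Egr1*, unlike the phosphatase genes, did not separate these states.

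Between ESCs and EpiLCs (d2), *Dusp4*, *Dusp6* and *Spry4* were lower in ESCs, 3 of the 9 genes with 0 higher, where 2.35% of all genes were lower and 2.64% higher. The differences were -3.12, -1.01 and -0.95, of which that of *Dusp4* rests on an ESC signal that may be background. The median of the 9 was -0.22, and that of all genes -0.00037. *Etv1* was at -0.45, *Etv5* at -0.22 and *Spred1* at -0.17, and *Spry2* (0.21), *Etv4* (0.18) and *Egr1* (0.17) had the opposite sign.

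With PRDM14, 4 of the 9 genes were lower than in EpiLCs (d2) and none was higher, against 1.91% lower and 2.72% higher among all genes. *Etv1* had the largest difference (-1.54, 2.90-fold, rank 24 of 17097 from the lowest), followed by *Dusp4* (-1.41, 2.66-fold, rank 33), *Dusp6* (-1.13, 2.18-fold, rank 63) and *Spry2* (-0.90, 1.87-fold, rank 113). The second probe set of *Etv1* was lower by 1.20 on the log2 scale as well, and that of *Spry2* stood at -0.56, just within the cut-off. *Spred1* was at -0.48, *Egr1* at -0.24, *Etv5* at -0.14, *Etv4* at -0.13 and *Spry4* at 0.03. The median of the 9 genes was -0.48, and that of all genes -0.01. In this comparison 95% of all genes lay between -0.51 and 0.62.

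Against EpiLCs (d4), the scramble culture taken past the day 2 replating without PRDM14, 5 of the 9 genes were lower with PRDM14 and none was higher, with 2.17% lower and 1.86% higher among all genes. *Dusp6* was at -1.33, *Spry2* at -1.17, *Dusp4* at -1.16, *Etv1* at -1.01 and *Spred1* at -0.999, and at these genes the difference was thus between 2.00-fold and 2.51-fold. The second probe sets of *Etv1* (-0.59), *Spry2* (-0.62) and *Spred1* (-0.68) were past the cut-off too, but with the mean over all probe sets *Spred1* (-0.48) and *Etv1* (-0.53) were not. *Egr1* was at -0.52, *Spry4* at 0.11 and *Etv4* at 0.19. *Etv5* was at 0.51, since its level at day 4 was the lowest of the 6. From day 2 to day 4 without PRDM14 only *Etv5* passed the cut-off (-0.65), 1 of 9 genes, where 1.12% of all genes were lower and 2.18% higher. *Etv1* was at -0.52 and *Spred1* at 0.52. The comparisons with EpiLCs (d2) share that array, and those of EpiLCs + PRDM14 share that one, so their values are given side by side and not as independent results.

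**Figure D2:**
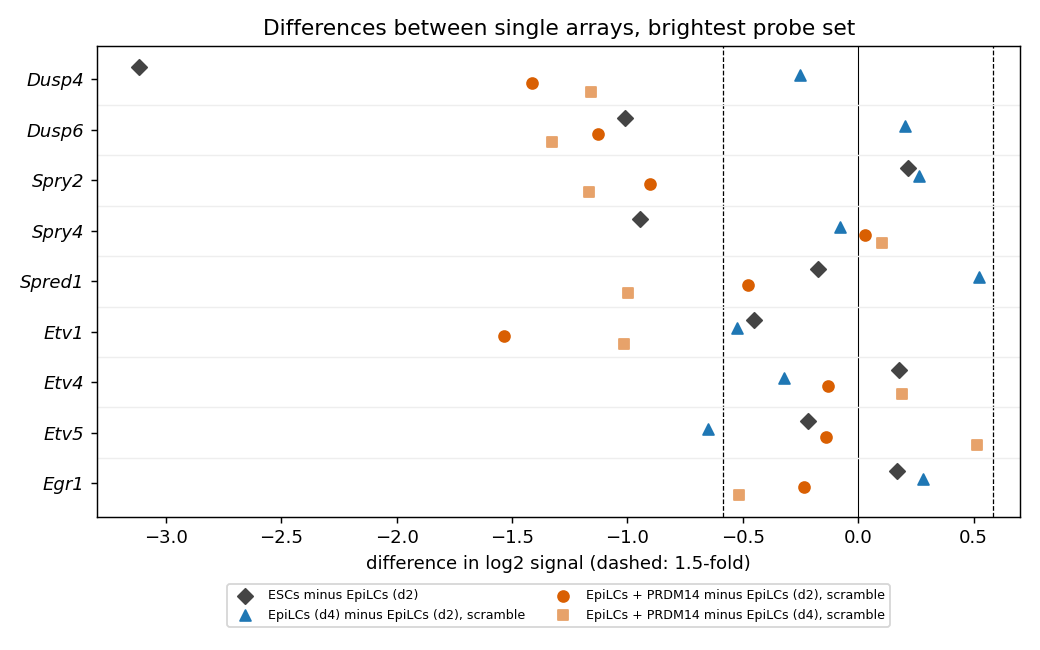
Difference in log2 signal (horizontal axis) of the brightest probe set of each gene between single arrays, with dashed lines at 1.5-fold. *Dusp4*, *Dusp6*, *Spry2* and *Etv1* lie left of the cut-off with PRDM14 against both EpiLCs (d2) and EpiLCs (d4), *Spred1* against EpiLCs (d4) alone, and *Spry4* only in ESCs.

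EpiLCs + PRDM14 did not stand at the ESC level for every gene. ESCs were lower than EpiLCs + PRDM14 for *Dusp4* (-1.70) and *Spry4* (-0.97) and higher for *Spry2* (1.12) and *Etv1* (1.09), so 2 genes were lower and 2 higher, with 2.90% and 2.25% among all genes. The call of *Spry4* rests on its brightest probe set, and its others were within the cut-off, at -0.22, -0.25 and -0.30. *Dusp6* differed by 0.11, *Etv5* by -0.08, *Spred1* by 0.30, *Etv4* by 0.31 and *Egr1* by 0.40, all within the cut-off.

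The same pair of cultures in the arrays labelled *Tet1*/*Tet2* KD gave 3 of 9 genes lower with PRDM14 and none higher, where 2.53% of all genes were lower and 2.12% higher. *Dusp4* was at -2.01 (4.02-fold), *Dusp6* at -1.13 and *Etv1* at -1.13 (both 2.19-fold). *Spry2*, past the cut-off in the scramble pair, was at -0.49, with *Etv5* at -0.46, *Spred1* at -0.34, *Spry4* at -0.32, *Egr1* at -0.14 and *Etv4* at -0.13. The KD-labelled difference minus the scramble one was -0.01 for *Dusp6* and 0.00 for *Etv4*. It was -0.60 for *Dusp4*, 0.41 for *Spry2*, 0.40 for *Etv1*, -0.34 for *Spry4* and -0.32 for *Etv5*, of which only that of *Dusp4* reached 1.5-fold, as did 3.25% of all genes in either direction. Over all genes, 95% of these differences of differences lay between -0.57 and 0.41. They rest on 4 single arrays and could not be tested.

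**Figure D3:**
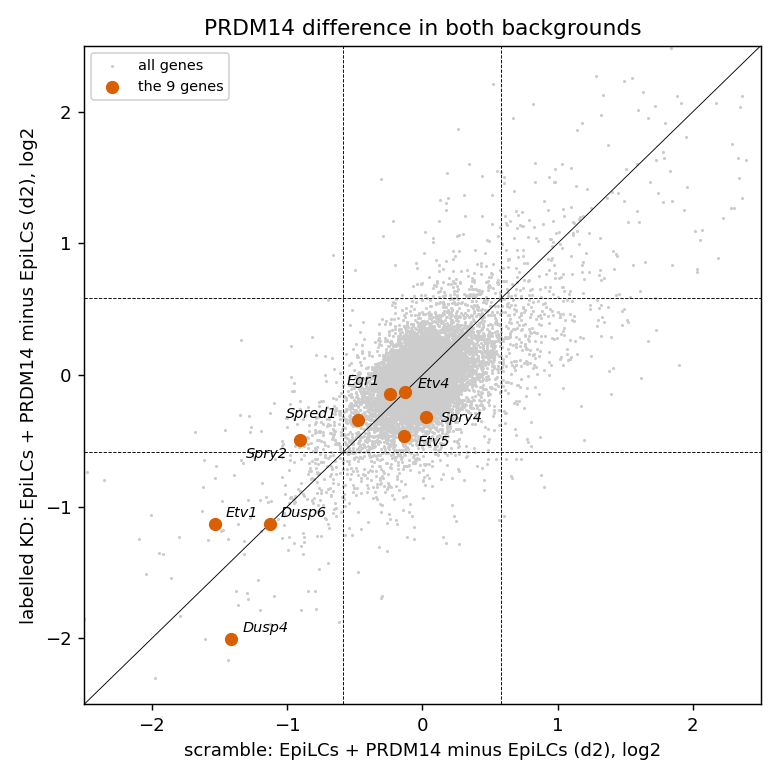
Difference between EpiLCs + PRDM14 and EpiLCs (d2) for scramble (horizontal axis) and in the arrays labelled KD (vertical axis), in log2 signal. Grey points are all genes, of which 20 fall outside the axes, orange points are the 9 genes, dashed lines are at 1.5-fold and the diagonal marks equal differences. *Dusp6* lies on the diagonal at -1.13 in both, *Dusp4* under it and *Spry2* and *Etv1* above it.

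Levels in the arrays labelled KD were set against scramble after the array medians had been subtracted, because the deposited medians were 5.07 there and 5.28 to 5.29 in the others. At day 2, *Egr1* (0.97), *Spry2* (0.83) and *Dusp4* (0.75) were higher in the array labelled KD and no gene was lower, that is 3 of 9 higher, with 3.30% of all genes higher and 2.25% lower. *Dusp6* was at 0.49, *Spred1* at 0.35, *Spry4* at 0.01, *Etv5* at 0.00, *Etv4* at -0.42 and *Etv1* at -0.53. At its second probe set *Spry2* was at 0.18, and *Etv1* at -0.62. In EpiLCs + PRDM14, *Spry2* (1.23, 2.35-fold) and *Egr1* (1.07, 2.10-fold) were higher in the array labelled KD, 2 of 9 genes, with 3.58% of all genes higher and 3.38% lower. *Dusp6* was at 0.48 and *Spred1* at 0.49, whereas *Dusp4* was at 0.15. The second probe set of *Spry4* was lower there by 0.64 on the log2 scale, against -0.34 at its brightest. Without subtracting the medians, values labelled KD move by -0.21 against scramble, and at day 2 the split was then 2 higher and 2 lower. *Dusp4* (0.54) was short of the cut-off, while *Etv1* (-0.74) and *Etv4* (-0.63) were lower. With PRDM14 it was 2 higher and 1 lower, *Etv4* (-0.63). Why the medians differ was not tested.

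Other genes of the FGF-ERK pathway were taken from 9 lists of 136 symbols, of which 118 genes were measured, and they had no common direction. With PRDM14 10 of the 118 were higher than in EpiLCs (d2) and 6 lower, with a median of -0.02, where 2.72% of all genes were higher and 1.91% lower. Against EpiLCs (d4) the balance was the other way, with 5 higher with PRDM14 and 9 lower. The median was then -0.03, where 1.86% of all genes were higher and 2.17% lower. In ESCs 6 were higher and 9 lower than in EpiLCs (d2), with a median of -0.03, against 2.64% and 2.35% of all genes. Of 8 ligand genes, *Fgf5*, an epiblast marker, was lower with PRDM14 (-0.94) and in ESCs (-0.93), and *Fgf1* was higher with PRDM14 (0.72). Each of them passed the cut-off at 1 of 2 probe sets. Of 12 receptor genes, *Erbb3*, a neuregulin receptor gene, was higher with PRDM14 by 0.82, *Kit*, the stem cell factor receptor gene, by 0.63 and *Fgfr2* by 0.62, whereas *Fgfr2* was also higher at day 4 without PRDM14 (0.94) and *Kit* was higher in ESCs (1.77). With PRDM14, *Erbb3* passed the cut-off at 1 of 2 probe sets and *Fgfr2* at 1 of 3. Of 14 adaptor genes, *Shc1*, which links receptors to GRB2 and RAS, was lower with PRDM14 (-0.75), at 1 of 2 probe sets. In the RAS-RAF-MEK-ERK cascade, 11 of 19 genes were analysed here. *Araf* (0.83) and *Eras*, an ESC-expressed RAS gene (0.62), were higher with PRDM14, and *Braf* was lower in ESCs (-1.04). *Araf* passed the cut-off at 1 of 2 probe sets and *Braf* at 2 of 3. Against EpiLCs (d4), *Fgf1* (0.48), *Araf* (0.41), *Eras* (0.46) and *Fgfr2* (-0.32) were within the cut-off with PRDM14. *Erbb3* (0.82), *Kit* (0.93), *Fgf5* (-0.64) and *Shc1* (-0.85) were past it there too. In the pair labelled KD, *Eras* was lower with PRDM14 (-0.64). Of 6 genes of the CIC complex and of ETV protein turnover, none passed the cut-off in ESCs or with PRDM14 against EpiLCs (d2). Of these, *Atxn1l* was higher at day 4 than at day 2 (1.60) and lower with PRDM14 than at day 4 (-1.21), each at 1 of 3 probe sets.

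Of 19 other negative feedback genes, 3 were lower with PRDM14 than in EpiLCs (d2) and 1 was higher, with 1.91% and 2.72% among all genes. *Dusp1*, an immediate-early phosphatase gene, was at 2.64 in ESCs, 4.12 at day 2, 3.97 at day 4 and 2.998 with PRDM14 in scramble EpiLCs, and 4.06 at day 2 and 3.10 with PRDM14 in EpiLCs labelled KD, the same split of arrays as in *Dusp6*. *Dusp9*, which encodes a cytoplasmic phosphatase that acts on ERK, was at 3.87 at day 2, 2.74 at day 4 and 2.83 with PRDM14, so that the EpiLCs (d4) and + PRDM14 arrays lay together. *Spry1* was at 1.53 at day 2, 1.28 at day 4 and 0.83 with PRDM14. *Dusp16*, whose product acts mainly on JNK and p38, was higher with PRDM14 (0.84, at 1 of 2 probe sets) and in ESCs (0.71). *Errfi1*, which encodes an inhibitor of EGF receptors, was lower in ESCs (-0.87).

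Over the whole dual-specificity phosphatase family, tabulated after these values had been seen, 5 of 22 measured genes were lower with PRDM14 than in EpiLCs (d2) and 1 was higher, with 1.91% and 2.72% among all genes. They were *Dusp4*, *Dusp6*, *Dusp1*, *Dusp9* and *Dusp12* (-0.79), which is not known as an ERK phosphatase gene, with *Dusp16* on the other side. Against EpiLCs (d4), 3 were lower with PRDM14, *Dusp4*, *Dusp6* and *Dusp1* (-0.97), whereas *Dusp9* (0.09) and *Dusp12* (-0.46) were within the cut-off, and 1 was higher, *Dusp16* (0.65), with 2.17% lower and 1.86% higher among all genes. In ESCs 4 were lower, again *Dusp4*, *Dusp1* (-1.47), *Dusp6* and *Dusp9* (-0.83), and 3 were higher, *Dusp27* (0.71), *Dusp16* and *Dusp14* (0.60). Among all genes 2.35% were lower and 2.64% higher in ESCs. In the KD-labelled pair 3 were lower with PRDM14, *Dusp4*, *Dusp6* and *Dusp1* (-0.95), and none was higher, with 2.53% lower and 2.12% higher among all genes. *Dusp7*, another ERK phosphatase gene, was at -0.04 with PRDM14 and -0.01 in ESCs. Among the family genes past the cut-off in these comparisons, only *Dusp12* and *Dusp27* had not been counted above. *Dusp4* and *Dusp6* belong to the genes described from the start, and *Dusp1*, *Dusp9*, *Dusp14* and *Dusp16* to the other negative feedback genes. The family counts thus largely repeat earlier ones, and beside the shares of all genes they are descriptions and not separate evidence.

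**Figure D4:**
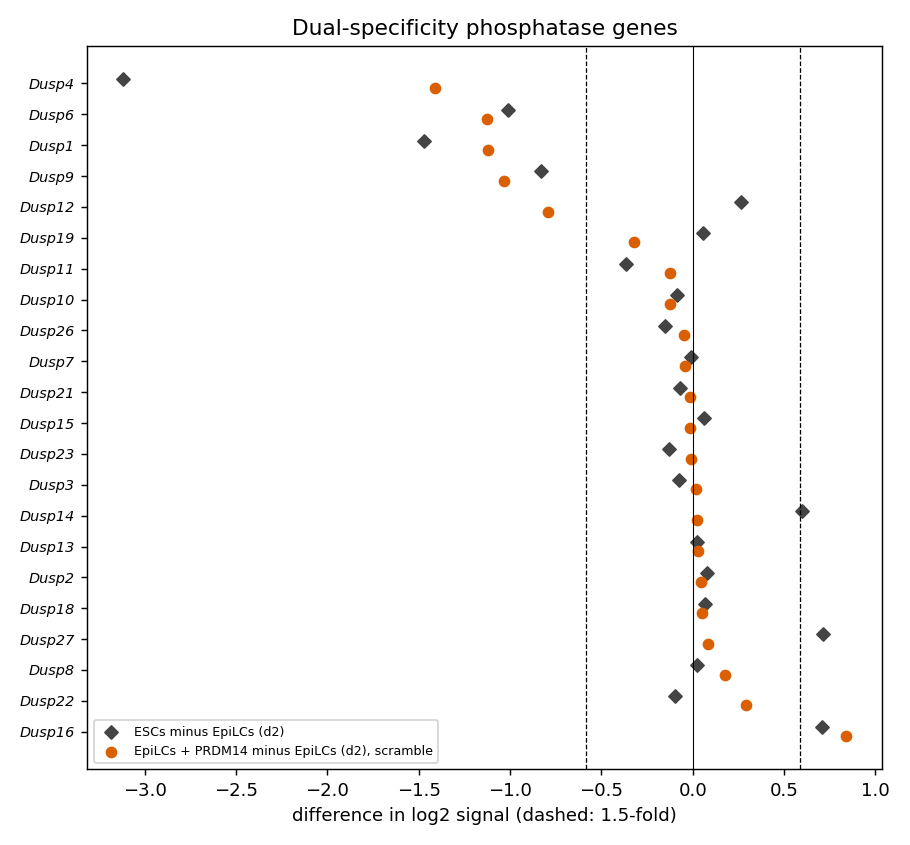
Difference in log2 signal (horizontal axis) of 22 dual-specificity phosphatase genes in ESCs (diamonds) and in scramble EpiLCs + PRDM14 (circles), each minus EpiLCs (d2), 1 array per condition, with dashed lines at 1.5-fold. *Dusp4*, *Dusp6*, *Dusp1* and *Dusp9* lie left of the cut-off in both comparisons.

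For 5 of the 9 genes the level spanned at least 1 log2 unit over the 6 arrays, and the profiles most like theirs were sought among the 1215 genes with such a span. The measure was Pearson's r over the 6 arrays, which share cell line and platform, and it is given as a description. The closest to *Dusp6* was *Mapk12*, which encodes a p38 kinase (r = 0.984), followed by *Sh3gl3* (0.973) and *Anxa4* (0.961). *Mapk12* was at -0.07 in ESCs, 0.80 at day 2, 1.10 at day 4 and 0.09 with PRDM14 in scramble EpiLCs, and 1.34 and 0.46 in the arrays labelled KD. The closest to *Dusp4* were *Zfp423* (0.974), *Hacd2* (0.972) and *Anxa4* (0.963). To *Spry2* it was *Shc1* (0.962), at 2.27 in ESCs, 2.28 at day 2, 2.38 at day 4 and 1.52 with PRDM14 in scramble EpiLCs, and 2.62 and 2.20 in the arrays labelled KD, followed by *Itga6* (0.897) and *Cd200* (0.880). To *Etv1* they were *Hsd17b11* (0.985), *Cipc* (0.967) and *Apobec2* (0.963), and to *Egr1* they were *Pik3r3* (0.975), *Lrp3* (0.964) and *Tgfb3* (0.964). Among the 9 genes themselves, r was 0.881 between *Dusp4* and *Dusp6*, 0.883 between *Dusp6* and *Spred1*, 0.854 between *Spry2* and *Egr1*, and 0.306 between *Etv1* and *Etv5*.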

How the data were processed

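Total RNA of the 6 cultures was hybridized to Affymetrix MG-430 PM array strips, 1 array per condition. What the authors deposited is a table of log2 RMA signals, computed in Affymetrix Expression Console, and the sources used here name no version of it. Of 45141 probe sets, 104 controls were left out, and 551 with several symbols and 15588 with none were not named. Array medians were subtracted before any comparison, and 8 pairs of arrays were compared at 1.5-fold without a test, since no condition has a second array. Precision is limited by the number of arrays. The rule for named genes takes all 9 members, up to 3 genes past the cut-off from each pathway list in ESCs and with PRDM14, each minus EpiLCs (d2), and the 3 closest profiles. Other values in the text were named after they had been seen. The members and lists were chosen with earlier results of these data known. Motifs were searched in RefSeq windows (GRCm38.p6), and the 4 CIC octamers were completed after the windows had been read. 5 genes had 7 windows here. Alternatives were a 2-fold cut-off, other rules from probe sets to genes, no median shift, quantile normalization and a filter on dim genes. The code that applies the cut-off was tested on simulated data with known differences, which says nothing of the error of these arrays. Python 3.11.15, pandas 2.3.3, numpy 2.4.6 and matplotlib 3.10.9 were used.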

Additional observations from a re-analysis of the deposited data

Results flagged for a closer look

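*Spry4* took opposite signs in EpiLCs + PRDM14 against EpiLCs (d2). The difference was 0.028 for scramble and -0.32 for the arrays labelled KD. Each rests on 1 array a side, both lie within 1.5-fold, and the gap between them was not tested.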

How the results depend on the processing

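No called difference of the 9 genes turned its sign under any alternative. At a 2-fold cut-off, the count of genes past it was 0 instead of 1 for EpiLCs (d4) minus EpiLCs (d2). For EpiLCs (d2) labelled KD minus scramble it was 0 instead of 3. Also short of 2-fold were *Spry2* with PRDM14 against EpiLCs (d2) (-0.90) and *Spred1* with PRDM14 against EpiLCs (d4) (-0.999). So was *Spry4* in ESCs against EpiLCs (d2) (-0.95) and against EpiLCs + PRDM14 (-0.97). With the probe set of largest difference, the count for EpiLCs (d4) minus EpiLCs (d2) was 2, since *Etv1* was added at -0.61. With the mean over probe sets, it was 3 instead of 5 for EpiLCs + PRDM14 minus EpiLCs (d4), where *Spred1* (-0.48) and *Etv1* (-0.53) were short of the cut-off because their dim probe sets enter the mean, and *Spry4* in ESCs against EpiLCs (d2) was at -0.30. Also short of it were *Spry4* in ESCs against EpiLCs + PRDM14 and *Spry2* in EpiLCs (d2) labelled KD against scramble. In all, 5 differences lost their call under this rule. Without the median shift, *Dusp4* was at 0.54 and *Etv1* at -0.74 in the array of EpiLCs (d2) labelled KD against scramble, and *Etv4* at -0.63 in both such pairs. Quantile normalization left all 72 differences on their side of the cut-off. No paired analysis was possible because each condition has 1 array. Depth is a signal on these arrays, and *Etv4*, the only gene below the median of named probe sets, is limited by it.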

Other observations

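*Mycn*, a MYC family gene, was at 2.60 in ESCs and, for scramble EpiLCs, 4.33 at day 2, 4.66 at day 4 and 5.11 with PRDM14. Its ESC level was thus the lowest of these and its + PRDM14 level the highest. *Myc* was at 1.92 in ESCs and, for scramble EpiLCs, 2.82 at day 2, 2.78 at day 4 and 2.37 with PRDM14. In the arrays labelled KD it was at 2.84 at day 2 and 2.04 with PRDM14. *Myc* was thus lower in ESCs than at day 2 (-0.90) and lower with PRDM14 in the KD-labelled pair (-0.80), while the scramble pair (-0.45) was within the cut-off. *Btg2*, an antiproliferative gene, was higher with PRDM14 than in EpiLCs (d2) by 0.85 at its brightest probe set, 1 of 2 past the cut-off. *Phlda1* was at 2.37 in ESCs and, for scramble EpiLCs, 1.81 at day 2, 1.05 at day 4 and 1.12 with PRDM14. It was at 3.08 and 1.95 in the day 2 and + PRDM14 arrays labelled KD. The cyclin gene *Ccnd1* was lower in ESCs than in EpiLCs (d2) (-0.84), and the imprinted *Phlda2* likewise (-2.60), whereas *Epha4* was higher (0.61, at 3 of 3 probe sets). Of 12 delayed ERK targets, 1 was thus higher and 2 lower in ESCs, against 2.64% and 2.35% of all genes. With PRDM14, 0 were higher and 1 lower than in EpiLCs (d2), against 2.72% and 1.91% of all genes. Of 15 other ETS family genes, *Etv6* was higher with PRDM14 than in EpiLCs (d2) (0.59) and *Elf2* higher in ESCs (0.92), the latter at 1 of 3 probe sets. *Etv6* was dim, at 0.05 at day 2, 0.49 at day 4 and 0.64 with PRDM14, so against EpiLCs (d4) it was within the cut-off (0.15).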
